A study of Mus musculus with 4 samples.

Results

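The genes described here are alpha-defensins and other products of Paneth cells of the mouse small intestine, with a few genes set beside them that other cells make as well. They are 38 of the 24182 genes listed in both deposited tables. They were picked out of the tables by gene symbol, without a threshold on their values but with earlier results of these data known. Counts of calls among them are thus a description of these genes and no independent test. The set holds the 28 rows whose symbol begins with Defa (alpha-defensins, 4 of them pseudogenes) and 10 other genes. Those 10 are Lyz1, Lyz2, Mmp7, Ang4, Itln1, Pla2g2a, Mptx1, Mptx2, Habp2 and Nupr1. The material was RNA of small-intestinal crypts, the pits of the gut lining where stem cells and Paneth cells sit, from male C57BL/6J mice aged 9 weeks. Of the 4 groups, 1 was fed and 1 was fasted for 24 hours, both without tetracycline, and the other 2 were fed and fasted in the same way with 21 days of tetracycline, an antibiotic. The study asked how depleting what the labels abbreviate as AKK with this antibiotic alters gene expression in fed and in fasted mice. The labels list 1 sample in each group and do not say whether animals were pooled. Every direction below rests on reading the deposited fold changes as fasted over fed.

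Paneth cells sit at the crypt base between the stem cells and release granules into the crypt lumen. The granules hold alpha-defensins, small cysteine-rich peptides that disrupt bacterial membranes, together with lysozyme, phospholipase, ribonuclease and lectin-like proteins. In mice the alpha-defensins are made as inactive precursors, and matrilysin, the protease encoded by Mmp7, cuts them to their active form inside the granule. The mouse alpha-defensin genes lie in a cluster of recent copies, so a short read can fit several of them.

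The copies fall into 2 kinds, which are shown first because the fasting results are read by kind and by copy. In GENCODE M21, 24 of the 28 alpha-defensin rows had a coding transcript. The last 105 coding bases before the stop codon, which lie toward the end of the precursor where the mature peptide is encoded, are given for 4 rows, with the in-frame TGC and TGT codons for cysteine in capitals.
Defa20: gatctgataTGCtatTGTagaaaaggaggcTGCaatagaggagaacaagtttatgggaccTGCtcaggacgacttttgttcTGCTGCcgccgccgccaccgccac
Defa22: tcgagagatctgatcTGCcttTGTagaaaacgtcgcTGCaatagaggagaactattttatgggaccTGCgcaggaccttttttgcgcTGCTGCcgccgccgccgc
Defa24: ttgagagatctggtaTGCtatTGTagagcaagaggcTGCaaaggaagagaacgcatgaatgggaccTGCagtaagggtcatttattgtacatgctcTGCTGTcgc
Defa38: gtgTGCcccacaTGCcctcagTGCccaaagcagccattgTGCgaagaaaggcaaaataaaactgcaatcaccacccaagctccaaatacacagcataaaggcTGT
The stretch printed for Defa20 was identical in Defa2, Defa32 and Defa33. Defa3 and Defa17 shared another identical stretch, and Defa5, Defa34 and Defa35 a further one. All of these are among the 20 rows without the repeat named below, which, with 279 to 285 coding bases and 6 or 7 cysteine codons in the stretch, are alpha-defensins of the usual kind. The other 4 rows, Defa29, Defa38, Defa39 and Defa43, had 348 coding bases and 5 cysteine codons in the stretch, and they alone held the repeat TGCCCNNNNTGCCCNNNNTGCCC. They belong to the cryptdin-related sequences, a branch of the family with repeated cysteine-proline pairs.

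How far a read can be assigned to a copy follows from the words of 31 bases in each transcript. All such words (100%) of Defa2, Defa20, Defa32 and Defa33 occurred in other members, as did 99.7% of those of Defa5. The shares were 57.1% for Defa24, 51.2% for Defa39, 43.9% for Defa43 and 70.4% for Defa30. Counting all genes and not only members, 100% of the words of Defa23 and Defa43 and 95.6% of those of Defa36 occurred in some other gene model. Words shared with other members made up 34.2% for Lyz1, which shares them with Lyz2, and 0% for Mmp7, Ang4, Itln1, Pla2g2a, Habp2 and Nupr1. Of these, Ang4 shared 13.8% with genes that are no members. Values of single alpha-defensin rows are therefore uncertain to that extent, and sums over the rows are given beside them.

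Promoters are shown for 3 rows, since Defa30 and Defa38 were called higher in fasted mice without tetracycline and Defa22 was not. RefSeq (build GRCm38.p6) gave a promoter entry for 13 alpha-defensin rows and 9 of the other 10 genes. The 250 bases before the start are printed 5′ to 3′, with capitals marking ATCAAAG, the reverse complement of CTTTGAT, a core motif of the TCF and LEF factors of the Wnt pathway. They lie at chr8:21162027-21162276 on the plus strand (Defa22), chr8:21134400-21134649 on the plus strand (Defa30) and chr8:21096051-21096300 on the minus strand (Defa38).
Defa22: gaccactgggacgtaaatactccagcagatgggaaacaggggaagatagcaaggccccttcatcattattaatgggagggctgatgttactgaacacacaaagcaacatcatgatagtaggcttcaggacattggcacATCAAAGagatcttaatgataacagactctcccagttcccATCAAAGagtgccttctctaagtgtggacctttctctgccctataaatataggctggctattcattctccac
Defa30: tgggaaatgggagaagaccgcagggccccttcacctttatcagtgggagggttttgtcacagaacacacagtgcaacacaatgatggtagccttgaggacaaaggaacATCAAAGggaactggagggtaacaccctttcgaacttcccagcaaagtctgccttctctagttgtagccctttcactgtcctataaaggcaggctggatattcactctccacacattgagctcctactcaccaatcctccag
Defa38: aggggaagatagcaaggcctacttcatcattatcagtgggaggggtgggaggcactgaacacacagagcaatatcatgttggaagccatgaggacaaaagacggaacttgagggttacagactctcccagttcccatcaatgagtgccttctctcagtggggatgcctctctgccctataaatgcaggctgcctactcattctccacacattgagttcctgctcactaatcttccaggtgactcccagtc
Searched on both strands over 300 bases, from 250 before to 50 after the start, the motif was in 11 of the 13 alpha-defensin promoters (84.6%) and in 3.73% of 32851 promoters of the same length. The promoters without a match were those of Defa38 and Defa43, which were the same at 97.3% of positions. The promoters of Defa2 and Defa20 were identical, as were those of Defa21 and Defa22, so the 13 are not independent. A match is a description of letters, not of a bound site.

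The whole counts behind the deposited means could be recovered for all 38 members in both tables, and they showed 4 libraries per table, 2 fasted and 2 fed. Of the 2 libraries of a feeding state, the one scaled by the larger size factor is numbered 1. Which labelled sample each came from is unknown, as is whether they were separate mice, so they are given as single values and the p-values measure only the spread between them. Size factors spanned a 1.17-fold range without and a 1.75-fold range with tetracycline. Normalised counts are counts divided by the size factor, not per length, and are compared between libraries of 1 table and not between genes. The alpha-defensin rows together made up 1.25% and 1.41% of the summed mean counts. All 10 Paneth and all 6 epithelial markers of the fixed lists were measured in both tables and at 0 in no library. In RNA of a mixed tissue, more Paneth cells and more RNA per Paneth cell cannot be told apart.

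Without tetracycline, fasted crypts carried more RNA of Mmp7, of 5 alpha-defensin rows and of several other Paneth cell products, and less of Lyz2. In the authors' deposited table, 12 of the 35 members with an adjusted p were called higher in fasted mice (adjusted p under 0.05, Benjamini-Hochberg over the table), against 1.06% of 18100 genes, and 1 was called lower, against 1.22% of the genes. The 12 were Mmp7, Habp2, Pla2g2a, Ang4, Nupr1, Itln1, Mptx2, Defa24, Defa30, Defa38, Defa39 and Defa43, and the fallen gene was Lyz2. At an unadjusted p under 0.05, 18 members were higher (4.59% of genes) and 1 lower (6.21%). The members' median log2 change was 0.61 over those tested, where that of all tested genes was 0.01. It was 0.37 for the 25 tested alpha-defensin rows and 1.06 for the 10 other genes. Of the 33 members with a mean of at least 50, 23 had both fasted libraries above both fed libraries, as had 20.1% of 12892 genes, and 3 had both below, as had 24.8%.

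**Figure D1:**
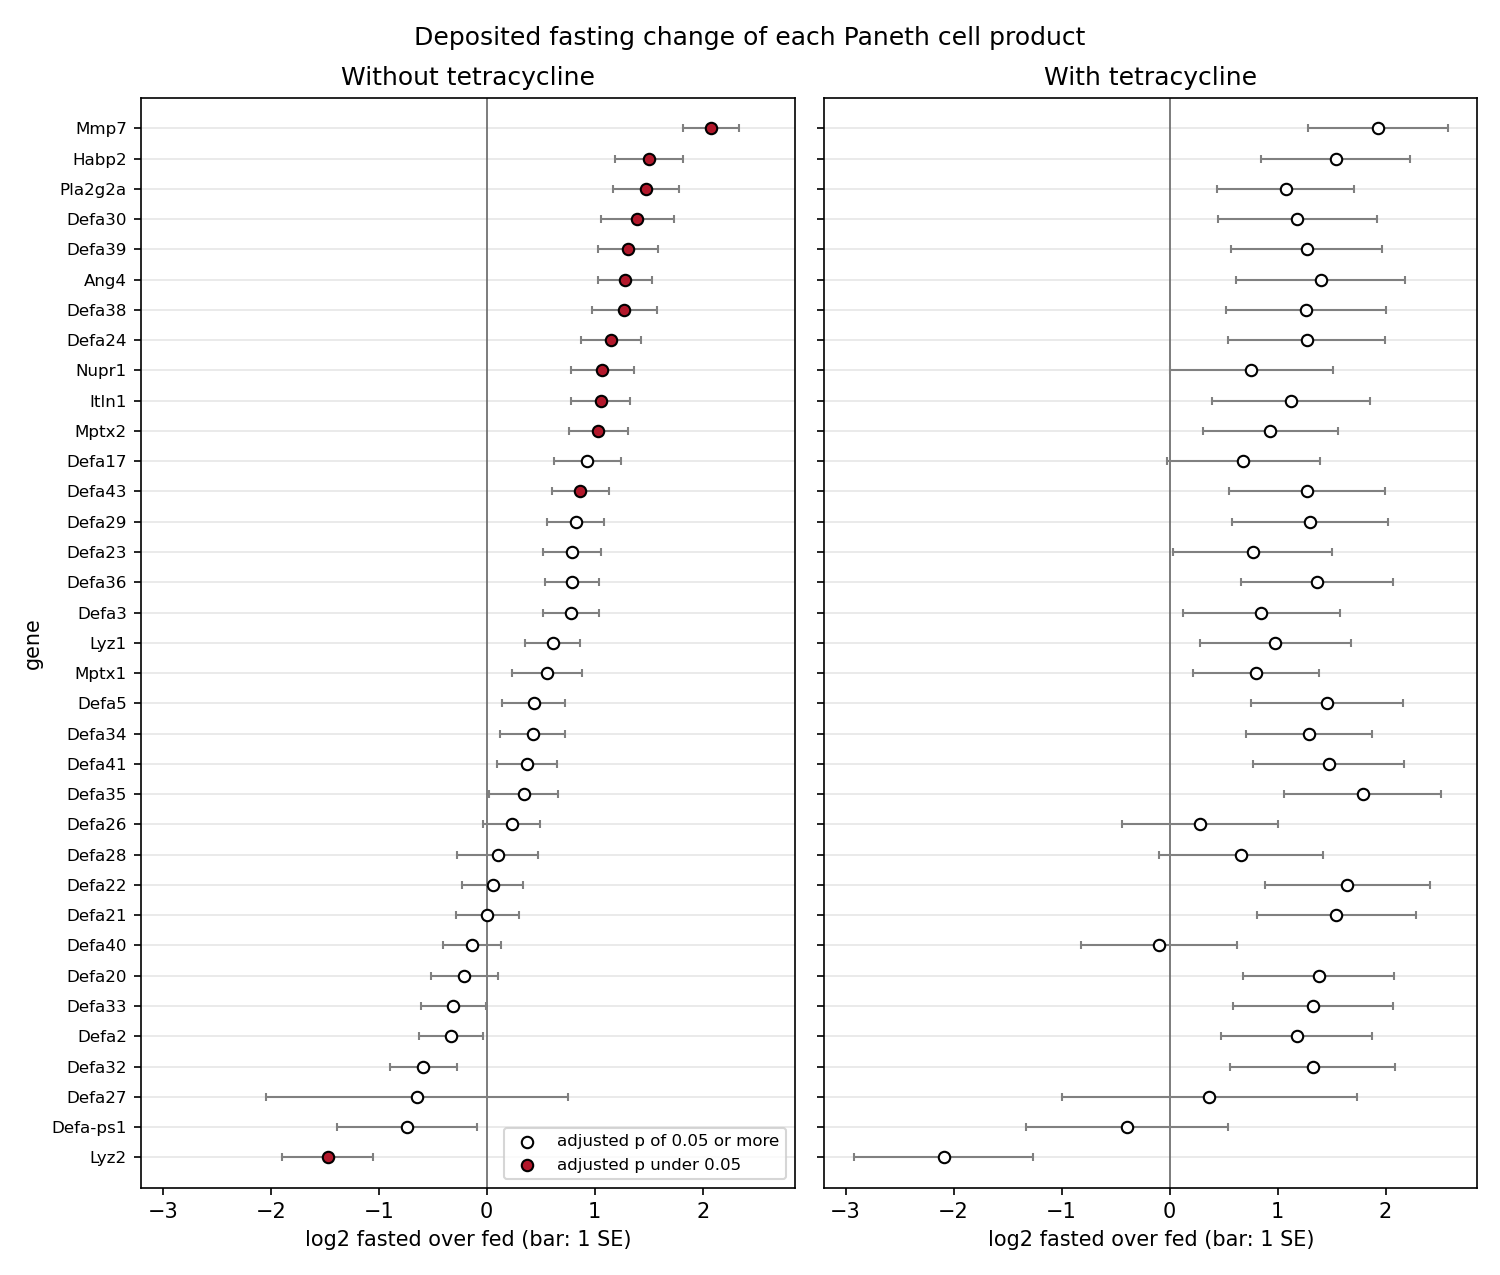
The log2 fasting change of the 35 members with an adjusted p, as deposited by the authors, with bars of 1 standard error, without tetracycline (left) and with it (right). Filled points passed an adjusted p under 0.05. Without tetracycline 13 points are filled and the changes fan out from -1.47 to 2.07, while with tetracycline none is filled and the bars are wider.

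Mmp7 (ENSMUSG00000018623.10), the protease that activates the defensins, had the largest called change of the members. Its normalised counts were 11508 and 13541 in the fasted and 3226 and 2727 in the fed libraries. Both fasted libraries lay far above both fed ones, and the authors' deposited table gave a change of 2.07 on the log2 scale (SE 0.26, adjusted p 1.72e-12), a 4.21-fold rise. Left out in turn, the libraries gave 1.95 to 2.20.

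The summed alpha-defensin rows were higher by a smaller factor. The sums were 913951 and 1169502 in the fasted and 612889 and 590092 in the fed libraries, 1.73-fold higher in the fasted mean. The groups did not overlap. The sum is given without a test.

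Within the family the rows split. Defa24 (ENSMUSG00000064213.6), the row with the highest mean, had normalised counts of 232015 and 302656 in the fasted and 135381 and 105665 in the fed libraries. It was called higher in the authors' deposited table, with a change of 1.15 (SE 0.28, adjusted p 0.00327). Defa30, which shares 48.9% of its words with Defa24, had 72718 and 97760 against 41973 and 22871, and a called change of 1.39 (SE 0.34, adjusted p 0.00338) by the authors' deposited table. In both rows every fasted library lay above every fed one.

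Of the 4 cryptdin-related rows, 3 were called higher. Defa38 had normalised counts of 40453 and 55118 in the fasted and 23302 and 16187 in the fed libraries. Defa39 had 59214 and 80139 against 30813 and 25534, and Defa43 had 96316 and 126473 against 58935 and 63405. None of the 3 overlapped between the groups. Their called changes in the authors' deposited table were 1.28 (SE 0.30, adjusted p 0.00212), 1.31 (SE 0.28, adjusted p 0.000339) and 0.86 (SE 0.26, adjusted p 0.0470), in that order. Defa29, the fourth of this kind, was at 19076 and 24733 against 11725 and 13047 and missed the threshold (0.82 by the authors' deposited table, SE 0.26, adjusted p 0.0703). Summed, the 4 rows were 2.06-fold higher in the fasted mean, where the 20 rows of the usual kind were 1.65-fold higher. Without 6 of those 20, namely Defa2, Defa20, Defa21, Defa22, Defa32 and Defa33, the other 14 were 1.98-fold higher. These 6 were set apart after their low fasting changes were seen, so the higher value of the other 14 follows from the choice.

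Further rows of high mean lay above in both fasted libraries but were not called. Defa23 had normalised counts of 95827 and 118522 in the fasted and 68950 and 54783 in the fed libraries. Defa3 had 88225 and 100489 against 60479 and 49546. Defa36 had 45044 and 54381 against 28256 and 29183. Their changes in the authors' deposited table were 0.79, 0.78 and 0.79, with adjusted p of 0.0985, 0.0843 and 0.0642.

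The copies with the end printed for Defa20, and the related Defa21 and Defa22, were not called and lay close to or below 0. Defa20 had 30621 and 35943 normalised counts in the fasted and 28479 and 48363 in the fed libraries, and Defa2 had 27396 and 32418 against 29571 and 45598. In both, fed library 2 was the highest of the 4 and the groups overlapped. The authors' deposited table gave -0.21 for Defa20 (SE 0.31, adjusted p 0.923) and -0.33 for Defa2 (SE 0.30, adjusted p 0.808). Defa2, Defa20, Defa21, Defa22, Defa32 and Defa33, a set formed after their values were seen, summed to 115361 and 141340 in the fasted and 115312 and 174944 in the fed libraries. Their share of all alpha-defensin counts was 12.6% and 12.1% in the fasted and 18.8% and 29.6% in the fed libraries. The other 22 rows were 2.0-fold higher in the fasted mean. The 6 rows had a log2 ratio of -0.18, which was 0.15 without fed library 2, so its sign rests on that library. Fed library 2 also had the highest sums of erythrocyte markers (24428 and 34797 in the fasted, 87003 and 293090 in the fed libraries), of pancreatic acinar markers (514 and 653 against 487 and 1472) and of gastric mucosa markers (13.8 and 818 against 267 and 1065), and their part was not tested.

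The remaining 18 alpha-defensin rows, which include 4 of those 6, comprised 13 with a mean of at least 50 in both tables. Their changes in the authors' deposited table ran from -0.59 (Defa32) to 0.93 (Defa17), and the smallest adjusted p was 0.0703. Of the other 5, Defa27 and Defa-ps1 were tested and not called, and the pseudogenes Defa-ps10, Defa-ps16 and Defa-ps17 had too few counts for an adjusted p.

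Among the other secreted products, Ang4, Itln1 and Pla2g2a were called higher. Ang4, a ribonuclease with bactericidal activity, had normalised counts of 21679 and 20528 in the fasted and 9383 and 7985 in the fed libraries. Itln1, a lectin that binds microbial sugars, had 95457 and 115151 against 58094 and 43272. Pla2g2a, a secreted phospholipase that RefSeq lists as a transcribed pseudogene in the C57BL/6J reference, had 1094 and 1342 against 509 and 368. All 3 were higher in both fasted libraries than in both fed ones. Their called changes in the authors' deposited table were 1.28 (SE 0.25, adjusted p 6.25e-05), 1.05 (SE 0.27, adjusted p 0.00907) and 1.47 (SE 0.31, adjusted p 0.000236).

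The mucosal pentraxins Mptx1 and Mptx2, secreted pattern-recognition proteins, share about 25.1% of their words. Mptx2 had normalised counts of 5052 and 6248 in the fasted and 2468 and 3056 in the fed libraries, and was called at 1.03 (SE 0.27, adjusted p 0.0104) by the authors' deposited table. Mptx1, at 405 and 569 against 342 and 318, also lay higher in both fasted libraries but was not called (0.56 by the authors' deposited table, SE 0.32, adjusted p 0.565).

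Lysozyme divided into its 2 genes. Lyz1 (ENSMUSG00000069515.7), the Paneth cell lysozyme, had normalised counts of 188603 and 233399 in the fasted and 138057 and 138113 in the fed libraries. The groups did not overlap, yet the change of 0.61 (SE 0.25, adjusted p 0.265) by the authors' deposited table was not called. Lyz2, the lysozyme of macrophages and other myeloid cells, went the other way, with 336 and 644 against 874 and 1844, and was called lower at -1.47 (SE 0.42, adjusted p 0.0250) by the authors' deposited table. Of 8 myeloid markers, 1 had a change above 0 in that table and 0 of 7 tested were called, and their summed normalised counts were 1045 and 1398 in the fasted and 1764 and 2498 in the fed libraries, with no marker at 0. Left out in turn, the libraries gave -2.02 (without fasted library 2) to -0.84 (without fed library 2) for Lyz2. The part of such cells in the change of Lyz2 was not tested.

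Habp2 and Nupr1 complete the set. Habp2, a secreted serine protease that binds hyaluronan, had normalised counts of 1571 and 1557 in the fasted and 679 and 427 in the fed libraries. Nupr1, a small nuclear protein induced by cell stress, had 665 and 804 against 353 and 347. Both genes were higher in both fasted libraries and were called in the authors' deposited table, at 1.5 (SE 0.31, adjusted p 0.000262) and 1.07 (SE 0.29, adjusted p 0.0165).

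**Figure D2:**
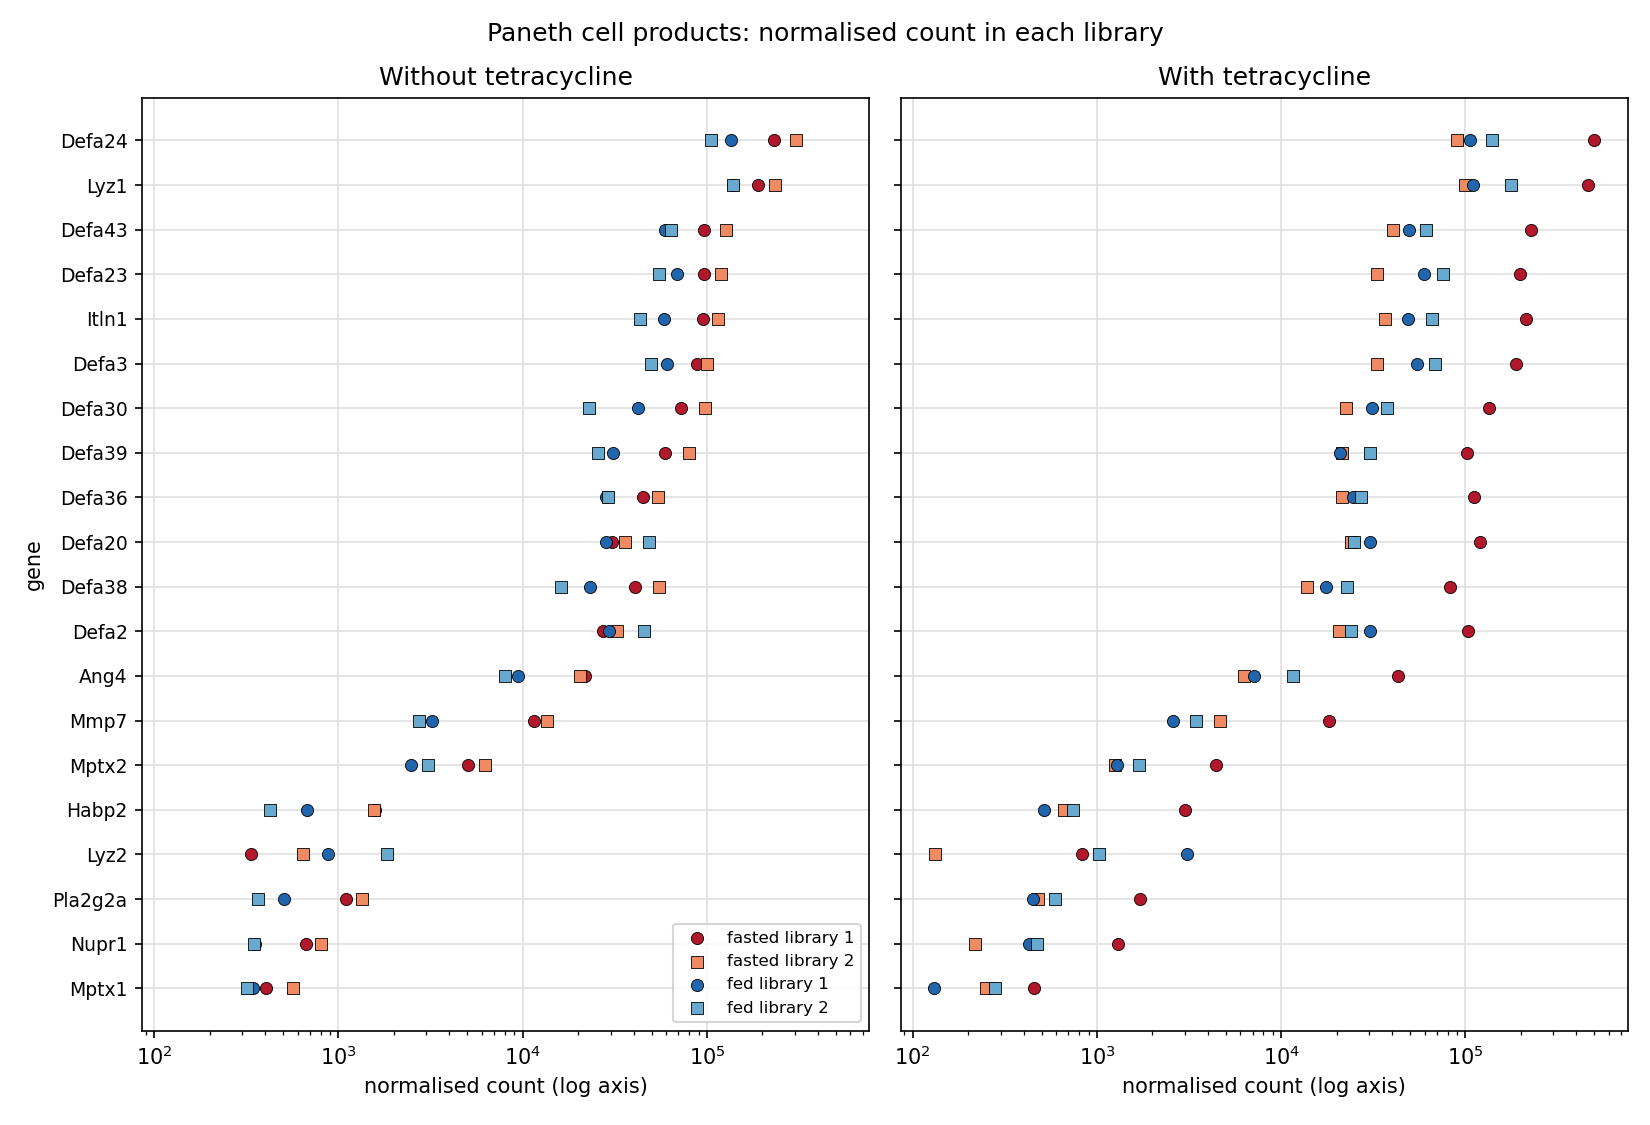
Normalised counts on a log axis of 20 members in each of the 4 libraries per table, without tetracycline (left) and with it (right); red and orange points are fasted libraries and blue points fed ones. On the left both fasted points lie to the right of both fed points for most genes, while on the right fasted library 1 is the highest point of every gene shown but Lyz2, where both fasted points lie below the fed ones, and fasted library 2 lies among or below the fed points except for Mmp7, where it lies above them.

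With tetracycline, the fasted mean was again above the fed mean for most members, but it came from 1 library. In the authors' deposited table, 0 of 35 tested members were called at an adjusted p under 0.05, against 0.6% of 17993 genes (0.333% higher and 0.267% lower). At an unadjusted p under 0.05 there were 9 members higher and 1 lower, against 2.27% and 3.06% of genes, or 5.34% in both directions. The median change of the tested members was 1.26, that of all tested genes was -0.02, and the median standard error of the members was 0.72, against 0.29 without tetracycline. Fasted library 1 was the highest of the 4 libraries for 33 of the 34 members with a mean of at least 50, Lyz2 being the exception, as it was for 21.1% of 13141 genes. Fasted library 2 was the lowest of the 4 for 23 of the 34, as it was for 29.6% of genes. The ratio of fasted library 1 to fasted library 2 had a median of 5.18 over these members and ran from 1.82 (Mptx1) to 6.92 (Ang4). In the other table the same ratio ran from 0.52 to 1.06.

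Markers of some other cell types also differed between these fasted libraries. Lgr5, the stem cell marker, had normalised counts of 1515 and 399 in the fasted libraries 1 and 2 and 391 and 722 in the fed ones. Lct, an enterocyte brush-border enzyme, went the other way, with 10035 and 69982 against 41582 and 43546, as did Alpi, with 35180 and 128779 against 106781 and 111964. Summed over the 6 enterocyte markers with library values, the counts were 428840 and 1341650 in the fasted and 636272 and 623123 in the fed libraries. Lymphocyte markers summed to 18812 and 3215 in the fasted and 56791 and 15011 in the fed libraries. The 6 stem cell markers summed to 114571 and 33342 in the fasted and 56539 and 119634 in the fed libraries. Fasted library 1 was the highest of the 4 for 5 of these 6 and for 33 members, though fed library 2 had the highest sum of stem cell markers. The sum of enterocyte markers was lowest in fasted library 1. Enteroendocrine (34883 and 31433) and tuft cell markers (6779 and 5626) had closer sums in the fasted libraries 1 and 2. Markers of gastric mucosa, which is no part of the small intestine, summed to 252 and 147 in the fasted and 2854 and 9219 in the fed libraries, and 1 of 6, Muc5ac, was called lower in the authors' deposited table (-6.05, SE 1.10, adjusted p 2.96e-05). The part of such differences in the members' values was not tested.

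The alpha-defensin sum shows the gap. It was 2165566 in fasted library 1 and 393957 in fasted library 2, against 528445 and 600065 in the fed libraries. Fasted library 2 was below both fed libraries. The fasted mean was 2.27-fold higher, a log2 ratio of 1.18. Without fasted library 1 the ratio was -0.52, and without fasted library 2 it was 1.94, so the direction of the sum rests on fasted library 1.

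**Figure D3:**
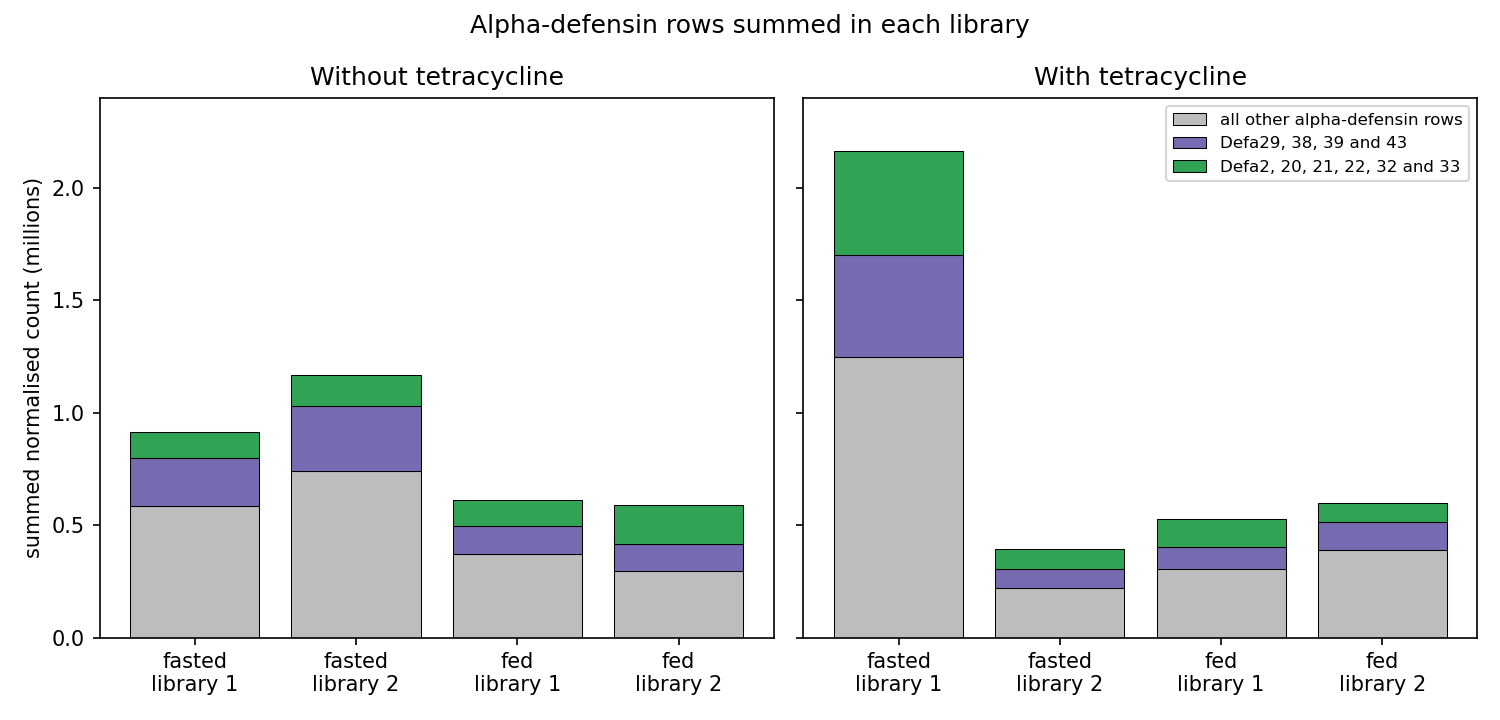
Summed normalised counts, in units of 1e6, of the 28 alpha-defensin rows in each library, split into the 4 cryptdin-related rows, the 6 rows around Defa2 and Defa22, and all others. Without tetracycline both fasted bars exceed both fed bars, while with tetracycline fasted library 1 is the tallest bar and fasted library 2 is the lowest bar.

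Single defensin rows followed the sum. Defa24 had normalised counts of 501543 and 89905 in the fasted and 106209 and 139411 in the fed libraries, Defa30 had 133949 and 22390 against 31291 and 37642, and Defa43 had 225884 and 40686 against 49151 and 61139. Defa23 (197140 and 32908 against 59265 and 75799), Defa3 (188626 and 32963 against 54352 and 68543) and Defa38 (82767 and 13782 against 17421 and 22792) showed the same order. In these 6 rows fasted library 2 was the lowest of the 4. Their changes in the authors' deposited table lay between 0.77 (Defa23) and 1.27 (Defa43), with adjusted p of 0.9999 in each. Defa36, at 111214 and 21339 against 24406 and 27087, had the same order too, and its adjusted p was 0.942.

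The Defa20 copies showed the same high fasted library 1 with tetracycline. Defa20 had 119676 and 23985 normalised counts in the fasted and 30312 and 24943 in the fed libraries, and Defa2 had 102627 and 20570 against 30496 and 23963. Their changes in the authors' deposited table were 1.38 (SE 0.70, adjusted p 0.931) and 1.18 (SE 0.70, adjusted p 0.9999). The share of the 6 rows in all alpha-defensin counts was 21.5% and 22.3% in the fasted and 23.8% and 14.1% in the fed libraries. Across the 8 libraries this share was lowest in the 2 fasted libraries without tetracycline. The 6 rows were grouped after their values there were seen, so that low share follows from the choice and is no separate result. The fed libraries of each table differed widely from each other.

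Of the 34 members with a mean of at least 50, 3 had both fasted libraries above both fed ones with tetracycline, as had 15.3% of 13141 genes. They were Mmp7, Defa34 and Defa35. Mmp7 had normalised counts of 18214 and 4645 in the fasted and 2574 and 3428 in the fed libraries, and a change of 1.93 (SE 0.65, adjusted p 0.246) by the authors' deposited table. Left out in turn, the libraries gave 0.63 to 2.60. Defa34 had 4163 and 1366 against 1060 and 1206, and Defa35 had 1055 and 212 against 197 and 170. Lyz2 was the single member with both fasted libraries below, at 830 and 132 against 3080 and 1029 (-2.09 by the authors' deposited table, SE 0.83, adjusted p 0.579), a pattern that 15.4% of genes had. Left out in turn, the libraries gave -3.96 to -1.10 for Lyz2. Myeloid markers summed to 2047 and 587 in the fasted and 4914 and 2335 in the fed libraries, with both fasted libraries below in 6 of 7, and their part in it was not tested.

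The other products overlapped between fed and fasted libraries. Lyz1 had normalised counts of 464890 and 99996 in the fasted and 109539 and 177018 in the fed libraries, Ang4 had 43251 and 6254 against 7091 and 11659, and Itln1 had 212226 and 36802 against 48737 and 65778. Nupr1 (1298 and 219 against 425 and 473) and Mptx2 (4414 and 1259 against 1281 and 1694) likewise had fasted library 2 at the bottom. In Habp2 (2996 and 663 against 517 and 744), Pla2g2a (1712 and 480 against 452 and 590), Mptx1 (457 and 250 against 130 and 278) and Defa39 (101774 and 21305 against 20826 and 30294), fasted library 2 lay between the fed libraries. The changes of these 9 genes in the authors' deposited table ran from 0.76 (Nupr1) to 1.54 (Habp2), and the smallest adjusted p among them was 0.794 (Habp2).

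Because most members rose and fell together between libraries, each was also expressed in percent of the Lyz1 count of the same library. This measure was chosen after the library values had been seen, and it is a description without a test. Mmp7 was 6.10% and 5.80% of Lyz1 in the fasted and 2.34% and 1.97% in the fed libraries without tetracycline. With tetracycline it was 3.92% and 4.65% in the fasted and 2.35% and 1.94% in the fed libraries. Fasted library 2 with tetracycline, which had the least Lyz1 of its table, thus had more Mmp7 per Lyz1 than any fed library. Relative to the alpha-defensin sum in place of Lyz1, the log2 change of Mmp7 was 1.29 without and 0.93 with tetracycline, against 1.47 and 1.0 relative to Lyz1.

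Besides Mmp7, 2 of the 32 members compared in this way, Habp2 and Defa39, had a higher ratio to Lyz1 in both fasted than in both fed libraries of both tables, where 0.314% of 12729 genes with a mean of at least 50 had. Habp2 was at 0.833% and 0.667% of Lyz1 in the fasted and 0.492% and 0.309% in the fed libraries without tetracycline, and at 0.644% and 0.663% against 0.472% and 0.420% with it. Defa39 was at 31.4% and 34.3% against 22.3% and 18.5%, and at 21.9% and 21.3% against 19.0% and 17.1%. Relative to the alpha-defensin sum, Habp2 still separated in both tables, but Defa39 overlapped with tetracycline, at 4.70% and 5.41% in the fasted and 3.94% and 5.05% in the fed libraries. A further 11 members were above without tetracycline and overlapped with it, Defa23 was above without and below with it, and Defa35 was below without and above with it. Another 6, Defa2, Defa20, Defa21, Defa22, Defa32 and Defa33, were below without tetracycline and overlapped with it. Defa17 overlapped without and was below with it, and 5 members overlapped in both tables. Another 4 members, Defa26, Defa28, Defa40 and Lyz2, had a lower ratio in both tables, where 10.9% of genes had. The reference itself spans 99996 to 464890 with tetracycline, so for genes made outside Paneth cells the ratio also carries the spread of Lyz1. The shares of 0.314% and 10.9% are therefore no like yardstick for members that rise and fall with Lyz1.

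**Figure D4:**
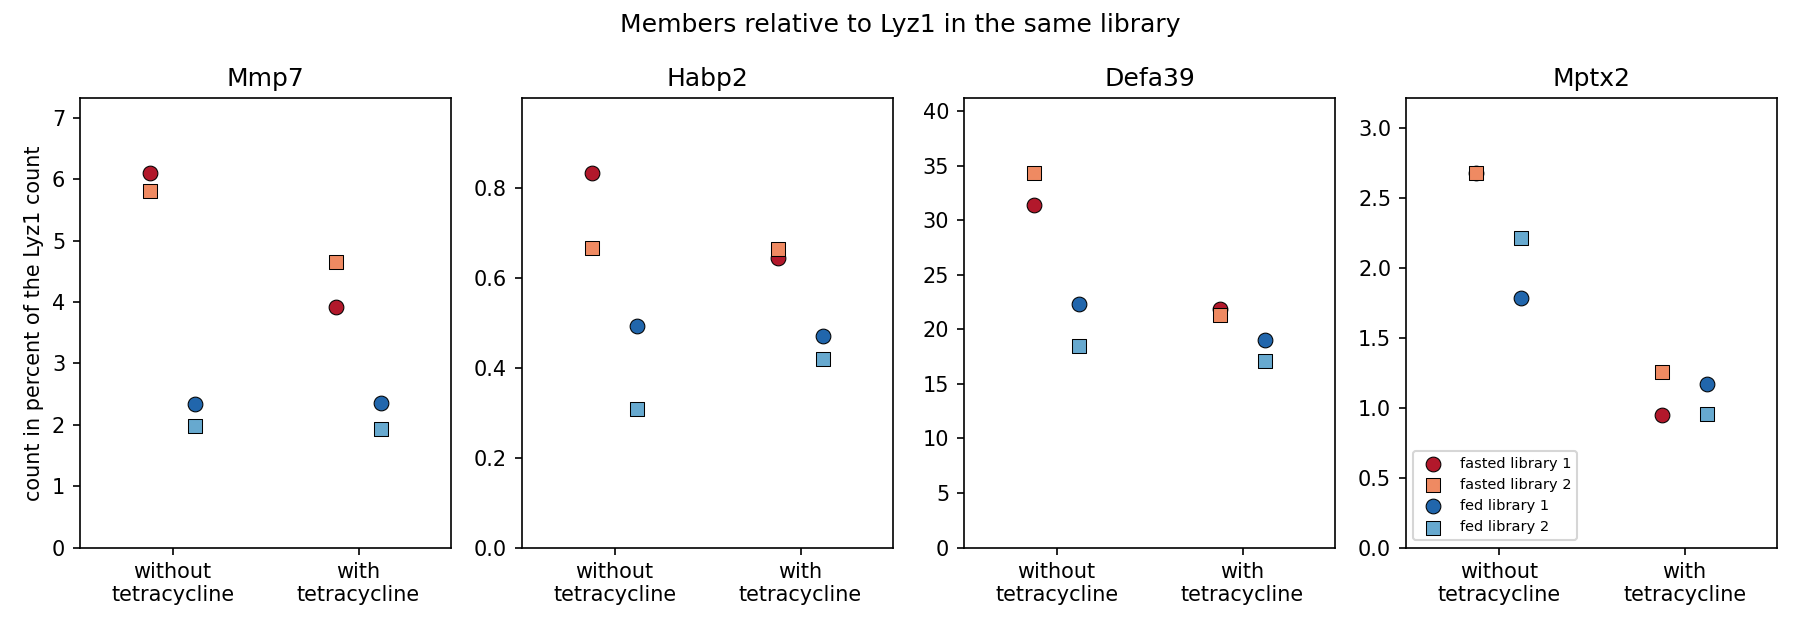
Normalised count of Mmp7, Habp2, Defa39 and Mptx2 in percent of the Lyz1 count of the same library, for fasted (red, orange) and fed (blue) libraries in both tables. In the first 3 panels the fasted points lie above the fed points in both tables, and the Mptx2 points with tetracycline lie at 0.949% to 1.26%, below those without it.

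Whether tetracycline altered the fasting change was tested as the difference of the 2 deposited changes of each gene (Wald test, two-sided, Benjamini-Hochberg over 17571 genes). No member was called (0 of 35), against 0.0228% of all genes, and 4 members, against 1.05% of genes, had an unadjusted p under 0.05. These 4 were Defa2, Defa20, Defa32 and Defa33, which share the end printed for Defa20, so they are not 4 independent observations. Their differences, with minus without tetracycline, were 1.51, 1.59, 1.91 and 1.64, and each adjusted p was 1. They rest on fasted library 1 with tetracycline: without it the fasting change of library means was -0.20 for Defa20 and -0.40 for Defa2, against -0.21 and -0.33 in the table without tetracycline. Defa21 and Defa22 had differences of 1.54 and 1.59 with unadjusted p of 0.0516 and 0.0511. For Mmp7 the difference was -0.14 (SE 0.70) and for Defa24 0.12 (SE 0.77), so differences of either sign remain possible at these standard errors. Over all genes the statistic had an SD of 0.73, below the 1 that the test assumes, and dividing it by its robust SD of 0.71 left 0 members called.

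Levels with and without tetracycline were set side by side within a feeding state, across separately scaled tables and without a test. In fed mice the alpha-defensin sum had a log2 ratio of -0.16 with against without tetracycline, after centring on the median of 21461 genes, and the libraries overlapped. Mmp7 (-0.05), Lyz1 (-0.01) and Defa24 (-0.04) also had overlapping libraries in fed mice, with ratios near 0. In fasted mice the sum had a ratio of 0.23, with the with-tetracycline libraries on both sides of those without. Mptx2 was the single member whose libraries with tetracycline lay below those without in both feeding states, with log2 ratios of -0.96 in fed and -1.06 in fasted mice. How many of all genes lay below in both states was not counted, so this pattern cannot be called particular to Mptx2. In fed mice Mptx1 (-0.76) and 5 alpha-defensin rows, Defa5, Defa29, Defa35, Defa36 and Defa41, also lay below without overlap, and Nupr1 (0.29) lay above. Of the 33 members with a mean of at least 50 in both tables, 7 thus lay below and 1 above in fed mice, where 15.9% and 20.2% of 12730 genes did. In fasted mice 1 of the 33 lay below and 0 above, where 5.45% and 12.5% of genes did.

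Other genes of Paneth cells came from lists of secreted products, fate factors, granule and autophagy genes, and niche signals. Of their 37 tested genes without tetracycline, 3 were called higher and 1 lower in the authors' deposited table, against 1.06% and 1.22% of all genes. Reg3b and Reg3g, antibacterial lectins that enterocytes make as well, were called in it at 4.56 (SE 0.91, adjusted p 0.000112) and 3.06 (SE 0.92, adjusted p 0.0393). Reg3g was at 120465 and 28742 normalised counts in the fasted and 7510 and 10323 in the fed libraries, while those of Reg3b could not be settled. Pla2g5, another secreted phospholipase, was at 241 and 257 against 93.3 and 117 and called at 1.25 (SE 0.37, adjusted p 0.0360) by the authors' deposited table. Reg3a was the fallen gene, at 7039 and 4040 against 9554 and 20109 (-1.42 by the authors' deposited table, SE 0.39, adjusted p 0.0167).

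With tetracycline 1 of 36 tested genes of those lists was called, against 0.6% of all genes, namely Reg3b, at 12148 and 89297 normalised counts in the fasted and 3281 and 3799 in the fed libraries (3.84 by the authors' deposited table, SE 0.78, adjusted p 0.000415). Here fasted library 2, low in the defensins, was the higher of the pair. None of the 9 fate and maturation factors, 10 granule and autophagy genes or 7 niche and surface genes was called in either of the authors' deposited tables. Of all genes in these lists, 14 of 37 had an unadjusted p under 0.05 without tetracycline, against 10.8% of all genes, and 4 of 36 with it, against 5.34%. The median log2 change of the 37 measured genes was 0.34 without and 0.43 with tetracycline. Among the fate factors, Sox9, which Paneth cells need, had 2732 and 3558 against 2967 and 1851 normalised counts without tetracycline, and Atoh1, which secretory cells need, had 1219 and 998 against 1287 and 1347. Neither had both fasted libraries above both fed ones. Of all 9 fate factors 4 did (Ephb3, Tcf7l2, Fzd5 and Bhlha15), while 3 had both below, against 20.1% and 24.8% of all genes.

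Markers of other cell types also differed between fed and fasted crypts without tetracycline. Lgr5 was at 1003 and 1168 normalised counts in the fasted and 665 and 375 in the fed libraries, higher in both fasted ones but not called (1.06 by the authors' deposited table, SE 0.34, adjusted p 0.0711). Summed over 6 markers, stem cell genes were at 71142 and 92922 in the fasted and 117570 and 73746 in the fed libraries, with 0 called. Tuft cell markers, of another rare epithelial cell type, summed to 9409 and 7631 in the fasted and 5111 and 5069 in the fed libraries. Their median log2 change was 0.75 and 6 of 6 were above 0, with 0 called. All 5 with a mean of at least 50 had both fasted libraries above both fed ones, as had 20.1% of 12892 genes. Proliferation markers had a change above 0 for 0 of 6 genes, with 0 called. Lymphocyte, stroma and erythrocyte markers were called lower in 3 of 7, 3 of 7 and 4 of 4 tested genes of the authors' deposited table, against 1.22% of all genes. Of the goblet, enteroendocrine and enterocyte markers, Agr2 (-1.20) and Cck (-1.02) were called lower and Fabp1 (1.08) higher in the authors' deposited table. The ileal bile acid binding protein Fabp6 was at 583 and 330 against 13402 and 18584, called lower in the authors' deposited table (-5.13, SE 0.34, adjusted p 1.46e-48), while the other 2 ileum markers, Fgf15 and Slc10a2, were not called. The 6 enterocyte markers with library values summed to 1324080 and 652976 in the fasted and 605796 and 862645 in the fed libraries, so the fasted libraries did not stand together. Whether the cell types and gut regions sampled have a part in the members' higher values was not tested.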

How the data were processed

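RNA of small-intestinal crypts was sequenced after a non-directional library preparation, per the labels' protocols. The authors used Salmon, DESeq2 and the mm10 build, per the submitters' processing notes, which give no versions. The authors deposited 2 tables of their own fasted and fed comparison, each with a mean normalised count (a signal value per gene), a log2 fold change and its standard error, a Wald statistic (a score) and p-values, raw and adjusted, per the file headers. The direction, fasted over fed, was read from the word order of the table names. A clue to it is that the deposited digits were matched closer with the fitted intercept on the numerator's side of the ratio than on the other (median error 2.4e-15 against 2.4e-06 over 500 genes without tetracycline), where an alphabetical default puts a level named fasted.

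The tables hold no counts of single libraries. Whole counts were recovered from the deposited mean and change, with a tolerance of 1e-11 on the log2 scale, for 99.98% of the genes with a mean up to 20000 and for all 38 members. They carry no sample names, so they are single values and the authors' test was kept, in place of the count test planned had counts been deposited. The difference of the 2 changes was tested by a Wald test (scipy 1.17.1), which was tried on simulated data. Levels across tables were centred on the median of genes with a mean of at least 1. Words of 31 bases and coding ends came from GENCODE M21 transcripts, promoters from RefSeq. Python 3.11.15, numpy 2.4.6, pandas 2.3.3, numba 0.67.0 and matplotlib 3.10.9 were used.

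Values are given for every member outside the alpha-defensins, for the 8 alpha-defensin rows of highest mean in either table and for any such row called. Members and lists were chosen with earlier results of these data known.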

Additional observations from a re-analysis of the deposited data

How the results depend on the processing

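Of 66 alternatives for the main results, 63 turned no called direction and kept counts of calls within 1.5 times the reported count, and none of the 290 for single genes turned a called direction. With tetracycline no member was called, so for that table the check on single genes could not have failed. Of the 13 members called without tetracycline, 9 passed an adjusted p under 0.01, and 18 members passed one under 0.1. Shares of all genes at thresholds of 0.01 and 0.1 are not given here, so counts at them only describe the genes named. Leaving out a library gave values without a new test, and changes that were not called could turn: with tetracycline and without fasted library 1, Ang4 went from 1.40 to -0.58 and the alpha-defensin sum from 1.18 to -0.52. The sums with a library left out, and those with unnamed rows added, were chosen after seeing the data. Counting the alpha-defensin rows alone, 5 were called without tetracycline, against 13 of all members and 2.27% of all tested genes. At an adjusted p under 0.01, 1 of the other Paneth cell genes was called without tetracycline, against 4. The median log2 change over all 38 members with tetracycline turned from 1.27 to -0.42 without fasted library 1, and leaving out each library gave -0.42 to 1.94. Without tetracycline the same range was 0.54 to 0.83. Relative to Lyz1, the change of Mmp7 ranged from 1.35 to 1.59 without and from 0.87 to 1.14 with tetracycline. No paired analysis was possible because the tables' columns carry no replicate numbers and the recovered libraries cannot be tied to samples. The planned sum with alpha-defensin models under other symbols was not run, since 0 of those 11 symbols are in the tables. The median standard error of the members, 0.72 with tetracycline against 0.29 without, limits what the former table can show.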

Other observations

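Defensin pseudogenes listed in the tables without a symbol, and matched to one through GENCODE by their identifier, were not members. Defa-ps7 had normalised counts of 55.0 and 68.8 in the fasted and 18.9 and 18.1 in the fed libraries without tetracycline, a change of 1.74 (SE 0.63, adjusted p 0.137) by the authors' deposited table. Defa-ps6 went slightly the other way there, at 99.1 and 115 in the fasted against 133 and 138 in the fed libraries, and was not called either (adjusted p 0.883 in the authors' deposited table). Their own reads cannot be told apart from those of the coding copies where sequence is shared.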
